A study of Mus musculus with 12 samples.

Results

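The 9 genes described here, Serpina3n, Lcn2, Cd44, Osmr, Steap4, S1pr3, Hspb1, Cp and Aspg, belong to the set of transcripts that astrocytes of many injury models make in common when they become reactive. They were taken by gene name from the deposited table and were 9 of its 55862 genes, of which 35208 had a value above 0 in any sample. RNA from 12 mouse samples was sequenced, with 3 samples in each of 4 groups. ASTs were primary astrocytes from the cerebral cortex of newborn C57BL/6 mice, expanded in medium with serum and taken at 0 days of incubation. A-iSCs were the same kind of astrocytes after 5 days as floating spheres on dishes coated with agarose. P56-NPCs were suspensions of subependymal zone cells from C57BL/6J mice aged 56 days (postnatal day 56), while P0-NPCs came from the hippocampus of newborn C57BL/6J mice (postnatal day 0). The methods describe the NPC suspensions as dissociated tissue, the P56 cells taken up in culture medium with B27, and name no sort by a marker, and no group carried a transgene or a genetic change that the sources name. The methods speak in general of independent experiments, and no source ties the 3 sequenced samples of a group to separate cultures or animals, so the p-values measure the spread between these samples, which may be technical. RNA here is bulk RNA, in which fewer cells of a type and less RNA per cell cannot be told apart.

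Reactive astrocytes are astrocytes that change shape, gene expression and secretion after injury, inflammation or infection of the nervous system. Cytokines of the interleukin-6 family act on them through receptors that share the gp130 subunit and activate Jak kinases and the transcription factor Stat3, and microglia are a main source of the cytokines that start the response. Among the 9 genes, Serpina3n, Lcn2 and Cp encode secreted acute-phase proteins, Osmr, S1pr3 and Cd44 encode cell surface receptors, Steap4 encodes a metal-reducing membrane enzyme, Hspb1 encodes a small heat shock protein and Aspg encodes an asparaginase.

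Levels are given in FPKM, the fragments of a gene per kilobase of its exons and per library size, as the authors scaled it, so they can be compared between genes. From 17077780 to 24452419 fragments per sample were counted on genes, and a gene with 1 kilobase of exons and 3 fragments would stand at 0.103 to 0.187 FPKM, a floor that covers counting error only. Mitochondrial genes took 16.54% to 17.63% of fragments in P56-NPCs and between 2.94% and 7.03% in the other groups. ASTs replicate 2 and A-iSCs replicate 3 lay farthest from the other samples of their group. Differences are log2 fold changes of FPKM + 1 with their standard errors (SE), from limma run on 2 groups at a time over all genes with a mean of at least 1 FPKM in either group, and a gene was called below 0.05 for the p after Benjamini-Hochberg adjustment over all genes tested. The added 1 FPKM makes these values understate the change of genes at low levels. Where scaling by library size is named below, the authors' library size was replaced by the fragments counted on genes.

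The promoters of 4 of the genes are shown as examples of windows with motif matches, those of Serpina3n, Lcn2 and Steap4, which were higher in A-iSCs than ASTs, and that of Hspb1, which was lower. The windows of Cp and Osmr also held matches and are described without their letters. Each is the RefSeq window of 300 bases on GRCm38.p6, from 250 bases before the transcription start to 50 after it, in the direction of the gene. Capitals mark matches to 5 motifs searched on both strands, which were STAT (TTCNNNGAA), AP-1 (TGANTCA), heat shock (GAANNTTC), C/EBP (TTGCNNAA) and NF-kB (GGNNTTTCC). Serpina3n lies on the plus strand at chr12:104406458-104406757, Lcn2 on the minus strand at chr2:32387690-32387989, and Steap4 and Hspb1 on the plus strand at chr5:7960222-7960521 and chr5:135887669-135887968.
Serpina3n: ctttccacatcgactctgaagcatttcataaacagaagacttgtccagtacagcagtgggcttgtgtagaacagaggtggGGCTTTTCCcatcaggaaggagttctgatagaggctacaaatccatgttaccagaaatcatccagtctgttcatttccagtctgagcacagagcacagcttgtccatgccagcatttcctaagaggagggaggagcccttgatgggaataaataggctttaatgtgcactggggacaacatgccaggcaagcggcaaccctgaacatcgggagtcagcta
Lcn2: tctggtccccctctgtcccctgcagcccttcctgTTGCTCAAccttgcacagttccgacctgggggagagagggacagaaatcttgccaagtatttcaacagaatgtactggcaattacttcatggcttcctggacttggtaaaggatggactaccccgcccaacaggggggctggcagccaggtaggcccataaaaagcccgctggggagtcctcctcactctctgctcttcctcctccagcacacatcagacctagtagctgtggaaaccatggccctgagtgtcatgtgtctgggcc
Steap4: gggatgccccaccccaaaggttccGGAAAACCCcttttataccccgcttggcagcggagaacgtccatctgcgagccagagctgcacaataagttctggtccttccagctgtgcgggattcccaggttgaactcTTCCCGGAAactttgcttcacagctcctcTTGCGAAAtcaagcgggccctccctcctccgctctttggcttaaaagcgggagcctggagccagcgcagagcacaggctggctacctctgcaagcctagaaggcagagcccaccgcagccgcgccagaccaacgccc
Hspb1: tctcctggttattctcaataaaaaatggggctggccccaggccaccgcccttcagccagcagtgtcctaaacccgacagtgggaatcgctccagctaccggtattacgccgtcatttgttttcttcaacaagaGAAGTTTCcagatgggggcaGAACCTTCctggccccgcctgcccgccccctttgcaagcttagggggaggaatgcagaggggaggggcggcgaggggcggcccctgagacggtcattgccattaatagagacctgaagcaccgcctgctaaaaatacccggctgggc
With the start at position 0, the Serpina3n window held an NF-kB match from -170 to -162 and the Lcn2 window a C/EBP match from -216 to -209. The Steap4 window held 3 matches, NF-kB from -226 to -218, STAT from -116 to -108 and C/EBP from -87 to -80. The Hspb1 window held a pair of heat shock matches, from -117 to -110 and from -97 to -90. Over the 10 windows of the 9 genes (Cp had 2), C/EBP matched in Cp, Lcn2 and Steap4, NF-kB in Cp, Serpina3n and Steap4, AP-1 in Cp and Osmr, heat shock in Hspb1 and STAT in Steap4, and the windows of Cd44, S1pr3 and Aspg held no match. Of all 32851 RefSeq promoter windows of this length, 10.8% held the C/EBP letters, 8.3% STAT, 7.86% heat shock, 7.81% AP-1 and 5.82% NF-kB. A match to such short letters is a description of the sequence and not evidence of binding.

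In A-iSCs 7 of the 9 genes were higher than in ASTs (Serpina3n, Lcn2, Osmr, Steap4, S1pr3, Cp and Aspg) and 2 were lower (Cd44 and Hspb1). Lcn2, Steap4 and Aspg had means under 1 FPKM in ASTs and entered the test only through A-iSCs, so the filter on low values (a mean of at least 1 FPKM in either group) fixed their direction and the count is a description. The log2 fold changes given for these genes are on the log2(FPKM + 1) scale, which understates changes at low levels, and with limma-voom on fragments recovered from the table Lcn2 was at 5.17, Steap4 at 5.19 and Aspg at 4.07. Of all 14087 genes tested, 25.2% were called higher and 29.6% lower (4563 higher and 2989 lower of 14297 genes with scaling by library size), and the median log2 fold change was 1.68 over the 9 genes and -0.06 over all genes tested. Serpina3n went from 8.78 ± 0.763 to 285 ± 107 FPKM (mean ± SD, n = 3), S1pr3 from 9.46 ± 0.342 to 70.2 ± 3.14 FPKM and Cd44 from 105 ± 2.73 to 31.3 ± 3.14 FPKM. For every one of the 9 genes the lowest sample of the higher group lay above the highest sample of the lower group. This was also the comparison in which the summed FPKM of 8 microglial markers went from between 98.0 and 130 in ASTs to between 1100 and 1520 in A-iSCs, with 8 of 8 markers called higher, and their part in the rises was not tested.

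**Figure D1:**
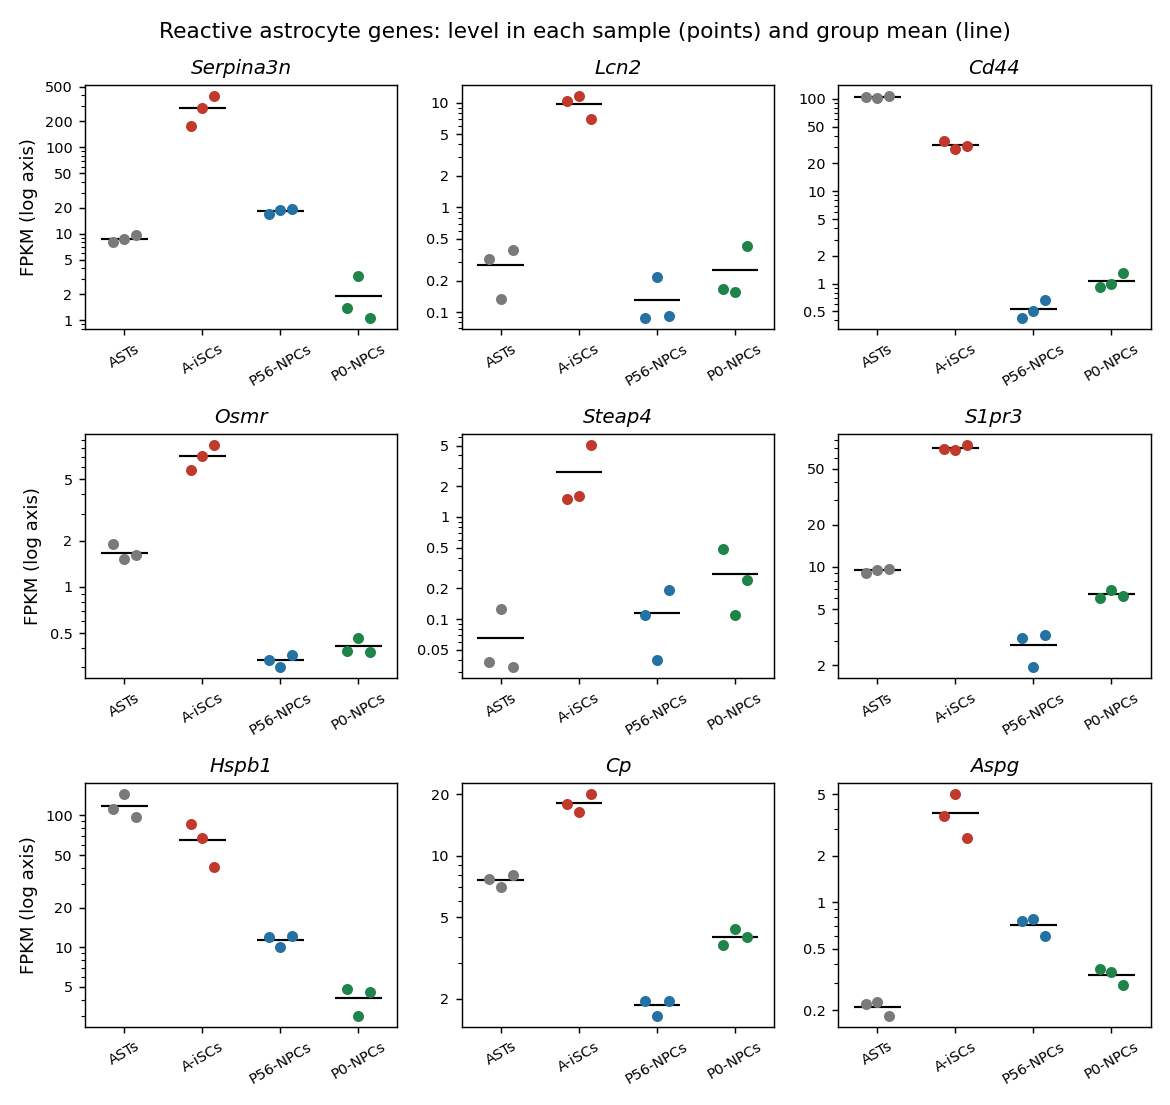
Level of each of the 9 genes in every sample, in FPKM on a log axis, with 1 panel per gene, points for the 3 samples of each group and a line at the group mean. A-iSCs lie highest for 7 genes, ASTs lie highest for Cd44 and Hspb1, and groups overlap only among ASTs, P56-NPCs and P0-NPCs for Lcn2 and Steap4.

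Serpina3n (ENSMUSG00000021091, chr12:104406729-104414329, plus strand) encodes a secreted inhibitor of serine proteases. It was at 8.09, 8.65 and 9.60 FPKM in ASTs, 179, 283 and 393 in A-iSCs, 16.8, 18.9 and 19.1 in P56-NPCs, and 1.40, 3.25 and 1.06 in P0-NPCs. The 4 groups were fully apart, in the order A-iSCs, P56-NPCs, ASTs and P0-NPCs. Its mean in A-iSCs was 32.4 times that in ASTs, with a log2 fold change of 4.80 (SE 0.27, limma adjusted p = 1.25e-05). It moved from rank 5064 to rank 91 of 21926 protein-coding genes by mean FPKM. Against ASTs it was higher in P56-NPCs by 0.98 (SE 0.09, limma adjusted p = 3.66e-05) and changed by -1.82 in P0-NPCs (SE 0.25, limma adjusted p = 0.000216). The sum of the microglial markers was 440 to 463 FPKM in P56-NPCs and 64.2 to 74.3 in P0-NPCs, which gave the same order of groups. C1qa had the highest mean of the 8 in every group (87.1 FPKM in ASTs, 1030 in A-iSCs, 213 in P56-NPCs and 41.5 in P0-NPCs). The other markers did not all keep this order. In P0-NPCs over ASTs 2 of 7 tested were higher (P2ry12 and Csf1r), 3 lower and 2 not called. Tmem119 and P2ry12 were lower in A-iSCs than in P56-NPCs. The part of microglia in the Serpina3n levels was not tested. Within A-iSCs the microglial sum was 1520, 1170 and 1100 FPKM in replicates 1, 2 and 3, and the astrocyte sum was 1210, 1500 and 2470. The marker with the highest mean there was C1qa (1030 ± 192 FPKM) in the microglial list. In the astrocyte list it was Gfap (970 ± 448 FPKM), itself a gene of the reactive set. The part of either cell type in the Serpina3n levels of these 3 samples was not tested. Serpina3n belongs to a cluster of similar serpin genes, and none of the 10 others listed here, nor the pseudogene Serpina3e-ps, exceeded 0.411 FPKM in any sample. Only 0.2% of the 100-base stretches of Serpina3n also occurred in another gene.

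Lcn2 (ENSMUSG00000026822, chr2:32384633-32388252, minus strand) encodes lipocalin 2, a secreted protein that binds bacterial iron carriers. It was at 0.318, 0.132 and 0.390 FPKM in ASTs and at 10.3, 11.6 and 7.05 in A-iSCs. In P56-NPCs it was at 0.0878, 0.214 and 0.0926 FPKM, and in P0-NPCs at 0.167, 0.157 and 0.429. Lcn2 was thus low in every sample outside A-iSCs, and the other 3 groups overlapped. ASTs held 7 to 19 fragments per sample and A-iSCs 496 to 721, and the log2 fold change was 3.04 (SE 0.18, limma adjusted p = 1.76e-05). Neutrophils also carry much Lcn2, and the summed FPKM of 8 neutrophil markers was highest in P0-NPCs at 7.51 to 22.1 and was 6.23 to 10.5 in P56-NPCs, while none of the 8 reached the filter in ASTs or A-iSCs.

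Cp (ENSMUSG00000003617, chr3:19957054-20009145, plus strand) encodes ceruloplasmin, a copper enzyme that oxidises iron. It was at 7.67, 7.04 and 8.03 FPKM in ASTs, 17.8, 16.4 and 20.1 in A-iSCs, 1.95, 1.65 and 1.95 in P56-NPCs, and 3.66, 4.38 and 4.01 in P0-NPCs. The groups did not overlap, and the order was A-iSCs, ASTs, P0-NPCs and P56-NPCs. Cp rose by 1.15 in A-iSCs over ASTs (SE 0.12, limma adjusted p = 0.000182), the smallest of the 7 rises. Hps3, on the opposite strand, shares 108 bases or 1.1% of its exons, and whether strand was used in counting is not given in the sources used here.

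Steap4 (ENSMUSG00000012428, chr5:7960457-7982213, plus strand) encodes a membrane reductase of iron and copper. It was at 0.0378, 0.125 and 0.0341 FPKM in ASTs, from 2 to 8 fragments, and at 1.51, 1.61 and 5.08 in A-iSCs, from 96 to 430 fragments. P56-NPCs had 0.110, 0.0395 and 0.192 FPKM and P0-NPCs 0.485, 0.109 and 0.242. The A-iSCs were above every other sample, and the other 3 groups overlapped. The log2 fold change of A-iSCs over ASTs was 1.68 (SE 0.33, limma adjusted p = 0.00397), and its SE was the largest of the 9 with A-iSCs replicate 3 well above the other A-iSCs.

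Osmr (ENSMUSG00000022146, chr15:6813577-6874969, minus strand) encodes the oncostatin M receptor subunit, which pairs with gp130. It was at 1.89, 1.51 and 1.61 FPKM in ASTs, 5.77, 7.12 and 8.38 in A-iSCs, 0.338, 0.303 and 0.361 in P56-NPCs, and 0.386, 0.465 and 0.381 in P0-NPCs. The 4 groups were apart, although the NPC groups were close to each other and were below the filter for a test between them. Osmr rose by 1.59 in A-iSCs over ASTs (SE 0.14, limma adjusted p = 0.000104).

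S1pr3 (ENSMUSG00000067586, chr13:51408639-51422797, plus strand) encodes a receptor for the lipid sphingosine 1-phosphate. It was at 9.07, 9.58 and 9.72 FPKM in ASTs, 68.8, 67.9 and 73.8 in A-iSCs, 3.14, 1.95 and 3.28 in P56-NPCs, and 6.01, 6.91 and 6.26 in P0-NPCs. The replicates of ASTs and of A-iSCs lay closely together, and no groups overlapped. Its mean in A-iSCs was 7.42 times that in ASTs, with a log2 fold change of 2.77 (SE 0.1, limma adjusted p = 4.15e-06), and it moved from rank 4814 to rank 524 of protein-coding genes. The antisense gene Gm32834 covers 45 bases or 1.0% of its exons.

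Cd44 (ENSMUSG00000005087, chr2:102811141-102901665, minus strand) encodes the main cell surface receptor for the matrix polymer hyaluronan. It was at 104, 102 and 107 FPKM in ASTs, 34.5, 28.3 and 31.0 in A-iSCs, 0.425, 0.506 and 0.672 in P56-NPCs, and 0.910, 0.999 and 1.31 in P0-NPCs. Cd44 was among the most abundant transcripts of ASTs, at rank 474, and lay between 0.425 and 1.31 FPKM in the NPC samples. The ratio of the mean in ASTs to that in A-iSCs was 3.34, and the log2 fold change of A-iSCs over ASTs was -1.71 (SE 0.12, limma adjusted p = 3.23e-05). Even so, the mean in A-iSCs was 58.5 times that in P56-NPCs and 29.2 times that in P0-NPCs. The summed FPKM of 8 markers of meningeal fibroblasts, cells that also carry Cd44, was 147 to 198 in ASTs and 10 to 12 in A-iSCs, where 3 of the 4 markers tested were lower and 1 (Pdgfra) was higher, and their part in the fall of Cd44 was not tested. Most of the sum in ASTs came from Col1a1, at a mean of 158 FPKM, while Dcn, Lum, Dpt and Slc6a13 had means of at most 0.248.

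Hspb1 (ENSMUSG00000004951, chr5:135887919-135889563, plus strand) encodes a small heat shock protein that binds unfolding proteins and actin filaments. It was at 111, 146 and 96.8 FPKM in ASTs, 86.4, 67.7 and 40.8 in A-iSCs, 12, 10 and 12.1 in P56-NPCs, and 4.79, 3.03 and 4.54 in P0-NPCs. The highest A-iSC sample and the lowest AST sample were close, although the groups did not overlap. The log2 fold change of A-iSCs over ASTs was -0.89 (SE 0.29, limma adjusted p = 0.033). This call was lost with scaling by library size (-0.68, limma adjusted p = 0.073) and without ASTs replicate 1 (-0.93, limma adjusted p = 0.0722), ASTs replicate 2 (-0.73, limma adjusted p = 0.103) or A-iSCs replicate 2 (-0.95, limma adjusted p = 0.0683), and the value was -0.59 without A-iSCs replicate 3. Of the 100-base stretches of Hspb1, 44.0% also occurred in Gm9817 or the pseudogene Hsp25-ps1, at which 0 fragments and 1 to 20 fragments per group were counted, so its level depends on how the authors assigned shared reads.

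Aspg (ENSMUSG00000037686, chr12:112106679-112127559, plus strand) encodes an enzyme that splits asparagine into aspartate and ammonia. It was at 0.220, 0.224 and 0.184 FPKM in ASTs, 3.64, 5.06 and 2.63 in A-iSCs, 0.753, 0.779 and 0.603 in P56-NPCs, and 0.372, 0.351 and 0.289 in P0-NPCs. No groups overlapped, and ASTs, with 12 to 16 fragments per sample, were lowest. The log2 fold change of A-iSCs over ASTs was 1.95 (SE 0.19, limma adjusted p = 0.000135).

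The A-iSC samples differed among themselves in these genes. A-iSCs replicate 3 had the highest Serpina3n, Osmr, Steap4, S1pr3 and Cp and the lowest Lcn2, Hspb1 and Aspg of the 3. It also had the highest sum of astrocyte markers and the lowest sum of microglial markers of the 3, and the part of either was not tested. The summed FPKM of the 9 genes was 243, 275 and 234 in ASTs, 408, 488 and 581 in A-iSCs, 35.6, 34.4 and 38.4 in P56-NPCs, and 18.2, 19.6 and 18.5 in P0-NPCs. In ASTs, Hspb1 made up 41.4% to 53.0% and Cd44 37.1% to 45.9% of it, whereas Serpina3n made up 43.9% to 67.5% in A-iSCs and 47.1% to 55.0% in P56-NPCs.

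Against ASTs, 6 of the 9 genes could be tested in each NPC group, and Lcn2, Steap4 and Aspg were under the filter in both comparisons. Osmr in both, and Cd44 in that of P56-NPCs, entered only through ASTs, which fixed their direction as lower. In P56-NPCs, 1 of the 6 was higher (Serpina3n), where 39.1% of the 15146 genes tested were called higher. The other 5 (Cd44, Osmr, S1pr3, Hspb1 and Cp) were lower, where 39.8% of all genes were. With scaling by library size 4569 of 14655 genes were called higher and 7559 lower in P56-NPCs, and 7106 of 15359 higher and 4860 lower in P0-NPCs. In P0-NPCs, 0 of the 6 were higher by limma at the adjusted p, and 0 at an unadjusted p under 0.05, where 38.1% of 15010 genes were called higher, and 6 were lower, where 40.9% of all genes were. Over the 6 genes the median log2 fold change was -1.54 in P56-NPCs and -1.37 in P0-NPCs, beside -0.03 and -0.07 over all genes tested. Both comparisons and that of A-iSCs use the same ASTs, so the values are set side by side. Markers of other cell types moved in the same comparisons. In P56-NPCs, 7 of 7 oligodendrocyte (median 8.4), 7 of 7 choroid plexus, 7 of 7 ependymal, 8 of 8 microglial and 8 of 8 astrocyte markers were higher than in ASTs, and neuronal markers were 7 of 8 higher and 1 lower. In P0-NPCs, 8 of 8 neuronal (median 2.58), 7 of 8 endothelial and 6 of 7 meningeal fibroblast markers tested were higher, and astrocyte markers were 4 higher and 4 lower, and the part of these lists in the falls was not tested.

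Cd44 and Hspb1 had the largest differences from ASTs in both NPC groups. The log2 fold change of Cd44 was -6.11 in P56-NPCs and -5.67 in P0-NPCs (SE 0.08 and 0.09), with limma adjusted p = 8.18e-09 and 1.15e-08. That of Hspb1 was -3.24 in P56-NPCs and -4.53 in P0-NPCs (SE 0.16 and 0.19), with limma adjusted p = 1.51e-06 and 3.13e-07. Cp changed by -1.59 and -0.78 and S1pr3 by -1.48 and -0.50, each further in P56-NPCs than in P0-NPCs, and Osmr by -1 and -0.92. Of these, S1pr3 in P0-NPCs was at -0.25 with scaling by library size, and Osmr at -2.3 and -2.01 with limma-voom, and the calls held.

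**Figure D2:**
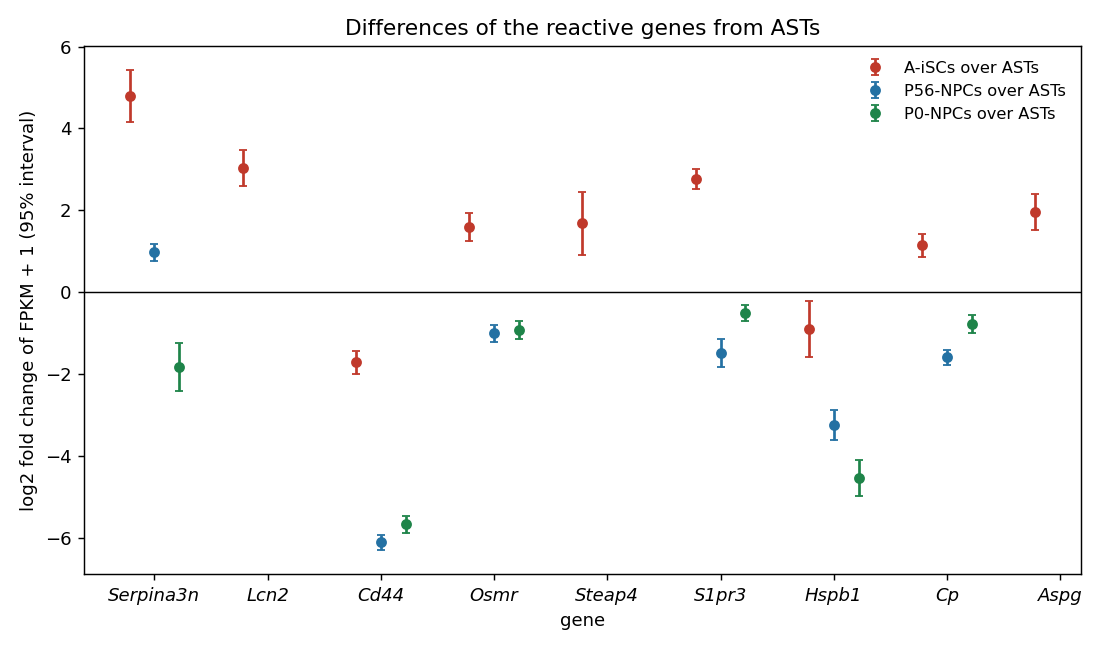
Log2 fold change of FPKM + 1 over ASTs for each of the 9 genes, with a point for A-iSCs, P56-NPCs and P0-NPCs and bars for the 95% interval from limma. Points are missing where a gene was under the filter. A-iSCs lie above 0 for 7 genes, and the NPC groups lie below 0 for every gene tested except Serpina3n in P56-NPCs.

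A-iSCs were higher than P56-NPCs in 9 of 9 genes, where 30.1% of the 15044 genes tested were called higher and 30.9% lower, and with scaling by library size 8329 of 14895 were called higher and 2857 lower. They were likewise higher than P0-NPCs in 9 of 9 genes, where 31.5% of 15170 genes were called higher and 33.6% lower. The filter fixed the direction of Lcn2, Osmr, Steap4 and Aspg in both comparisons and of Cd44 in that with P56-NPCs, since these had means under 1 FPKM in the NPC group, so the counts and medians are descriptions. The median log2 fold change of the 9 genes was 2.74 over P56-NPCs and 3.07 over P0-NPCs, against 0.03 and -0.02 for all genes tested. Of the 8 microglial markers, 8 were higher over P0-NPCs (median 3.01), and 5 were higher and 2 lower over P56-NPCs (median 0.94). Of the 8 astrocyte markers, 6 were higher over P0-NPCs and 0 lower, and 2 were higher and 5 lower over P56-NPCs. Neuronal markers were 8 of 8 lower in both comparisons and oligodendrocyte markers 7 of 7 lower over P56-NPCs, and the part of these lists in the differences was not tested. On the log2(FPKM + 1) scale, Cd44 differed from P56-NPCs by 4.39 (SE 0.11, limma adjusted p = 3.32e-07), S1pr3 by 4.25, Serpina3n by 3.82 and Lcn2 by 3.21. The order depends on the added 1 FPKM, since by the ratio of mean FPKM Lcn2 stood first at 73.4, before Cd44 at 58.5, and Aspg last at 5.31. Over P0-NPCs, Serpina3n differed by 6.62, Cd44 by 3.96, Hspb1 by 3.64, S1pr3 by 3.27, Lcn2 by 3.07 and, further down, Steap4 by 1.43 on the same scale. By the ratio of mean FPKM, Serpina3n again stood first at 150, followed by Lcn2 at 38.4 and Cd44 at 29.2, Steap4 was at 9.82, and Cp was last at 4.51. Some of these ratios lean on single samples. Serpina3n was at 3.25 FPKM in P0-NPCs replicate 2 beside 1.40 and 1.06. Lcn2 was at 0.429 in P0-NPCs replicate 3 beside 0.167 and 0.157, and Steap4 at 5.08 in A-iSCs replicate 3 beside 1.51 and 1.61. With limma-voom the log2 fold changes over P56-NPCs and P0-NPCs were 6.16 and 5.33 for Lcn2, 4.38 and 4.09 for Osmr, 4.5 and 3.37 for Steap4, and 2.34 and 3.42 for Aspg.

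Between the NPC groups 5 of the 9 genes could be tested. Serpina3n and Hspb1 were higher in P56-NPCs than in P0-NPCs, by 2.80 (limma adjusted p = 2.29e-05) and 1.29 (limma adjusted p = 9.97e-05), where 39.7% of 15394 genes were called higher (3438 of 15398 with scaling by library size). With that scaling the value of Hspb1 was 0.74. Cd44, S1pr3 and Cp were lower in P56-NPCs, with log2 fold changes of -0.43, -0.98 and -0.81 (limma adjusted p = 0.0103, 0.000422 and 6.99e-05), where 39% of all genes were called lower (9428 of 15398 with that scaling). With that scaling Cd44 was at -0.68, S1pr3 at -1.47 and Cp at -1.25, and Cd44 was at -1.02 with limma-voom. Cd44 entered this test only through P0-NPCs, which fixed its direction. These groups differ in age and in brain region together, which cannot be told apart. Astrocyte and microglial markers were 8 of 8 higher in P56-NPCs each, with sums of 2830 to 3070 against 238 to 303 FPKM and of 440 to 463 against 64.2 to 74.3. Meningeal fibroblast markers were 6 of 8 lower and 1 (Pdgfra) higher, with sums of 25.1 to 31.3 against 132 to 152 FPKM. The summed FPKM of 7 oligodendrocyte markers was 10900 to 12600 in P56-NPCs and 6.67 to 7.74 in P0-NPCs, that of 8 endothelial markers 4.01 to 4.52 and 76.6 to 81.0, and that of 7 choroid plexus markers 1500 to 3180 and 748 to 3850, and the part of any of these lists in the differences was not tested.

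The astrocyte markers Aldh1l1, Slc1a3, Slc1a2, Aqp4, Gja1, Aldoc, Gfap and S100b were used to check the AST and A-iSC labels. All 8 had a mean of at least 1 FPKM in every group, and their sum was 143 to 161 FPKM in ASTs, 1210 to 2470 in A-iSCs, 2830 to 3070 in P56-NPCs and 238 to 303 in P0-NPCs. In A-iSCs over ASTs, 7 of the 8 were called higher and 1 (Gja1) was not called. The 8 microglial markers were Aif1, Tmem119, P2ry12, Cx3cr1, Csf1r, Ptprc, Itgam and C1qa, and none was at 0 in any group. Neural progenitor markers were not examined here for the NPC labels. Sums of neuronal markers were 774 to 945 FPKM in P0-NPCs, 220 to 265 in P56-NPCs, 88.2 to 124 in ASTs and 48.6 to 66.0 in A-iSCs, of ependymal markers 271 to 372 in P56-NPCs and 50.4 to 119 elsewhere, and of mural markers 116 to 130 in P0-NPCs and 6.77 to 18.8 elsewhere.

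**Figure D3:**
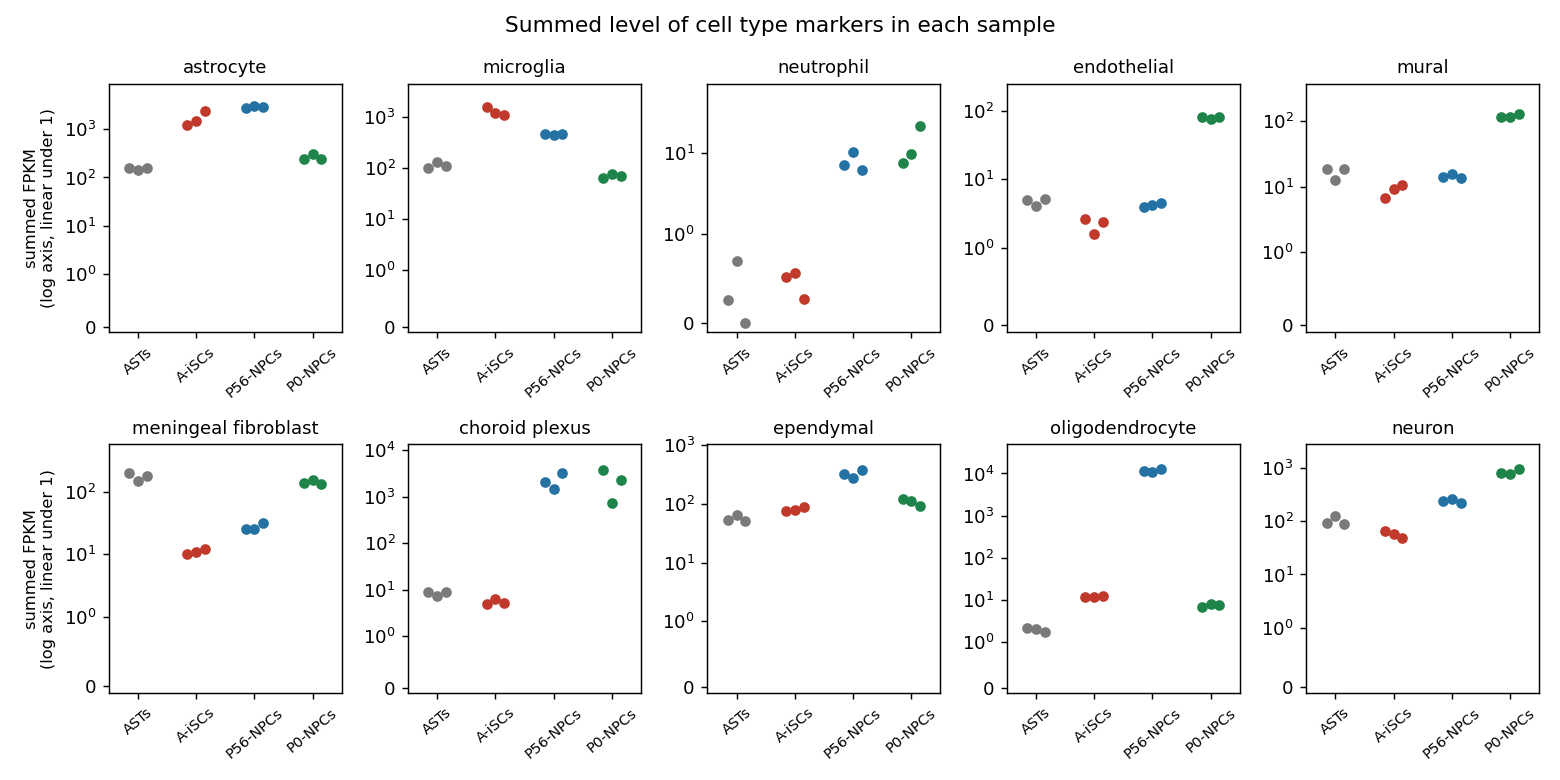
Summed FPKM of 10 lists of cell type markers in each of the 12 samples, on axes that are logarithmic above 1 and linear below it. The microglial sum is highest in A-iSCs (1100 to 1520), the oligodendrocyte sum in P56-NPCs (10900 to 12600) and the endothelial sum in P0-NPCs (76.6 to 81.0).

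The reactive set from which the 9 genes come also holds Gfap, the intermediate filament of astrocytes, Vim, Timp1 and Cxcl10, and these went both ways. In A-iSCs over ASTs, Gfap rose by 4.88 (29.9 ± 2.3 to 970 ± 448 FPKM, SE 0.30, limma adjusted p = 1.72e-05) and the chemokine Cxcl10 by 0.75 (limma adjusted p = 0.0123). Vim, another intermediate filament, changed by -1.09 (limma adjusted p = 0.0128) and Timp1, an inhibitor of matrix proteases, by -3.05 (limma adjusted p = 2.58e-05). In both NPC groups Gfap was higher than in ASTs, by 2.78 and 0.97, and Vim, Timp1 and Cxcl10 were lower, Timp1 with log2 fold changes of -8.18 and -6.99.

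Reactive astrocytes are often described by genes named A1, first seen after an inflammatory stimulus, and A2, first seen after ischaemia. Of 11 A1 genes tested in A-iSCs over ASTs, 8 were higher and 2 lower (median 1.94, where 25.2% of all genes tested were called higher and 29.6% lower), from 3.18 for the class I histocompatibility gene H2-T23 (6.26 ± 0.813 to 65.3 ± 14 FPKM, limma adjusted p = 1.18e-05) to -2.03 for Fbln5, a matrix protein. H2-D1 rose by 2.82 and Srgn by 2.45. Of 10 A2 genes tested, 1 was higher (Cd14, 1.07) and 6 were lower (median -0.79), the lowest being the membrane protein gene Emp1 at -2.59. In P56-NPCs 10 of 10 A2 genes were lower than in ASTs (median -3.46), and 6 of 10 A1 genes were lower and 3 higher (median -0.54, and 2 higher under either other scaling), where 39.1% of all genes tested were called higher and 39.8% lower. In P0-NPCs 9 of 10 A2 genes were lower and 1 higher (median -2.99), and 6 of 10 A1 genes were lower and 3 higher (median -1.2), where 38.1% of all genes were called higher and 40.9% lower. The filter fixed the direction of any listed gene with a mean under 1 FPKM in one of the groups compared, here and in the lists that follow. The A1 list holds genes that microglia also express, such as H2-D1 and Srgn, beside the microglial rise given above. That rise stands beside the A2 list as well, and its part in either list, Cd14 included, was not tested.

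Osmr works with the ligands, receptor subunits and signalling chain of gp130. Of 7 ligands of gp130 receptors tested in A-iSCs over ASTs, 1 was higher and 6 were lower (median -0.89), beside the 25.2% higher and 29.6% lower of all genes that apply to each list in that comparison. Osm, the ligand of Osmr itself and a product of myeloid cells, rose by 1.39 (0.981 ± 0.237 to 4.28 ± 1.30 FPKM, SE 0.19, limma adjusted p = 0.000779), whereas Lif changed by -3.04 (16.3 ± 3.72 to 1.09 ± 0.301 FPKM, limma adjusted p = 2.16e-05) and Il6 by -0.63. Of the receptor subunits, 5 of 5 tested were higher (median 0.89, and 4 of 5 with upper-quartile scaling), including gp130 itself (Il6st) at 1.04 (14.2 ± 2.53 to 32 ± 15 FPKM, limma adjusted p = 0.0213), Lifr at 0.42 and Cntfr at 1.90. Downstream, 7 of 14 genes of the Jak-Stat3 chain were higher and 1 was lower (median 0.50). Stat3 rose by 0.84 (limma adjusted p = 0.0185), Socs3, its feedback inhibitor, by 1.2 (12.5 ± 0.829 to 30.2 ± 4.96 FPKM, limma adjusted p = 0.000374), the phosphatase Ptpn6 by 2.63 and Bcl3 by 2.57, and Cish fell by 0.49. Ptpn6 and Osm are also expressed by microglia, whose markers were 8 of 8 higher in the same comparison (median 2.66), and their part in these rises was not tested. Against the same ASTs, Stat3 and Socs3 were lower in P56-NPCs (-0.40 and -0.88) and in P0-NPCs (-0.52 and -0.72), and the Stat3 call in P0-NPCs was lost with scaling by library size.

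Genes of iron handling, the process in which Lcn2, Cp and Steap4 take part, went both ways. Of 11 tested in A-iSCs over ASTs, 4 were higher and 5 lower (median 0.34), beside 25.2% and 29.6% of all genes. Slc22a17, a receptor for lipocalin 2, rose by 1.93 (6.57 ± 1.2 to 27.7 ± 1.10 FPKM, limma adjusted p = 3.11e-05), and the iron exporter Slc40a1 (ferroportin) rose by 1.18, at 0.127 ± 0.0402 and 1.57 ± 0.335 FPKM. Lrp2, a large endocytic receptor that also takes up lipocalin 2, changed by -3.06 (limma adjusted p = 1.45e-05). Heph, the other iron oxidase beside Cp, was under the filter in both groups. In the NPC groups Heph was higher than in ASTs, by 2.57 in P56-NPCs and 1.18 in P0-NPCs, where Cp was lower, and Slc22a17 was higher by 3.79 and 3.26.

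Around S1pr3, 3 of 8 genes of sphingosine 1-phosphate signalling rose and 1 fell in A-iSCs over ASTs (median 0.29), where 25.2% of all genes were called higher and 29.6% lower. S1pr1, a related receptor, rose by 2.17 (14.1 ± 0.871 to 67.7 ± 12.7 FPKM, limma adjusted p = 3.11e-05), the kinase Sphk2 that makes the lipid rose by 0.45, and the other kinase, Sphk1, changed by -2.29 (limma adjusted p = 1.07e-05). S1pr1 and S1pr3 were at similar means in A-iSCs, 67.7 and 70.2 FPKM, but apart in P56-NPCs, where S1pr1 was at 161 ± 4 FPKM and S1pr3 at 2.79 ± 0.727.

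Around Cd44, 0 of 9 hyaluronan genes tested were higher by limma in A-iSCs over ASTs (also 0 at an unadjusted p under 0.05, as every value was below 0) and 7 were lower, where 25.2% and 29.6% of all genes were (median -0.98, and 5 lower with scaling by library size). They ranged from the hyaluronidase Hyal2 at -0.39 and the synthase Has2 at -0.55, both calls lost with that scaling, to the hyaluronan-degrading Cemip at -2.90. Hmmr, another hyaluronan receptor, was at -2.55, and Ezr and Msn, which link Cd44 to actin, at -1.08 and -1.30. In P56-NPCs 7 of 9 were lower than in ASTs and 1 (Rdx) was higher, beside 39.8% and 39.1% of all genes, and in P0-NPCs 7 of 10 were lower and 2 (Cemip2 and Lyve1) were higher, beside 40.9% and 38.1%. The Rdx call was lost when the samples were scaled by library size or by upper quartile.

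Around Hspb1, 2 of 14 heat shock chaperone genes were higher and 7 lower in A-iSCs over ASTs (median -0.49, beside 25.2% and 29.6% of all genes), and with scaling by library size 4 were higher and 5 lower. Cryab, the small heat shock protein most abundant in ASTs, went from a mean of 821 to one of 163 ± 82.7 FPKM (log2 fold change -2.46, SE 0.43, limma adjusted p = 0.0024). Hspb8, another of this family, rose by 0.44, a call lost with upper-quartile scaling, and Hspa1a by 0.93. Hsf1, the transcription factor of the heat shock response, was at 5.43 ± 0.75 and 5.47 ± 1.79 FPKM (limma adjusted p = 0.928). In P56-NPCs 12 and in P0-NPCs 13 of the 14 were lower than in ASTs, beside 39.8% and 40.9% of all genes tested, and Hspb8 changed by -3.97 and -3.48.

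Around Aspg, 2 of 6 genes of asparagine and aspartate metabolism were higher and 3 lower in A-iSCs over ASTs (median -0.55), beside 25.2% and 29.6% of all genes. Asrgl1, another asparaginase, rose by 1.30 (limma adjusted p = 0.000975), and Asns, which makes asparagine, changed by -1.53 (21.4 ± 0.868 to 6.79 ± 1.16 FPKM, limma adjusted p = 9.29e-05).

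**Figure D4:**
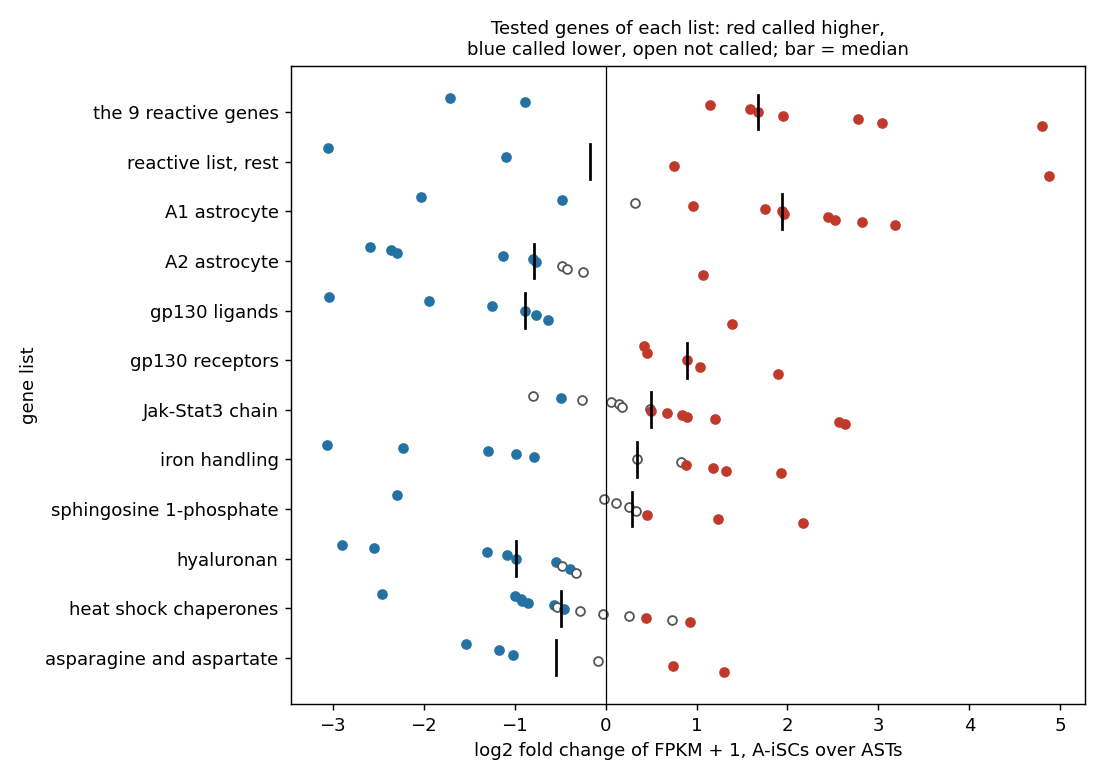
Log2 fold change of FPKM + 1 of A-iSCs over ASTs for the tested genes of 12 lists, with red points for genes called higher, blue for genes called lower, open points for genes not called and a bar at the median of each list. The 9 reactive genes have a median of 1.68, A1 genes 1.94, A2 genes -0.79, and the hyaluronan list has no point called higher.

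For each gene, the 3 protein-coding genes most like it across the 12 samples were found by Pearson r of log2(FPKM + 1) among 13660 genes. These r describe 4 groups of 3 samples, whose differences set them, and carry no test. Most like Serpina3n were Mpeg1 (0.991), Tlr13 (0.990) and Cysltr1 (0.987). Mpeg1, a pore-forming protein of macrophages and microglia, was at 20.2 FPKM in ASTs, 238 in A-iSCs, 30.3 in P56-NPCs and 9.27 in P0-NPCs. Genes like Lcn2 included Cyp4f18 (0.993) and Ifi206 (0.992). Most like Osmr were Cybb (0.994), Egln3 (0.993) and Ifi204 (0.989), and most like S1pr3 were Ifi207, Helz2 and Msr1 (each 0.982). Most like Cp were Gbp9 (0.987), Slc2a6 (0.986) and Igf1 (0.983). Most like Aspg were Rnf31 (0.982), Ebi3 (0.979) and Tlr1 (0.976), and most like Steap4, with the lowest values, were Il13ra1 and Gtpbp8 (each 0.960) and Cd5l (0.956). Those most like Cd44 and Hspb1 were Shisa3 (0.998), Dysf (0.998) and Scpep1 (0.997) for Cd44, and Ltbr (0.995), Rnh1 (0.995) and Sertad1 (0.994) for Hspb1, all highest in ASTs.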

How the data were processed

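RNA of 12 samples in 4 groups of 3 was analysed from 1 table. The authors deposited FPKM values for 55862 genes with a gene length each, and the unit, not named in the sources used here, was found from the values. Multiplied by gene length, 100% of values up to 1000 fragments were whole multiples of 1 step per sample within 0.02 fragment, which gave the fragments per gene (17077780 to 24452419 per sample). The library sizes behind the values were 0.744 to 1.218 times these totals. The submitters' processing notes list Bowtie 0.12.2 and mm8, whereas the gene positions are those of GRCm38 (GENCODE M21), and coordinates are given on GRCm38. DESeq2, named in the study's methods, was not used, and limma-voom served as the count-based alternative.

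Groups were compared 2 at a time with limma 3.58.1 in R 4.3.3 (lmFit, eBayes with trend, two-sided) on log2(FPKM + 1), over genes with a mean of at least 1 FPKM in either group, with Benjamini-Hochberg adjustment over all genes tested. Python 3.11.15, numpy 2.4.6, pandas 2.3.3 and matplotlib 3.10.9 were used for the rest. On simulated data for A-iSCs against ASTs, 188 of the 199 changed genes that passed the filter, among 13406, were called. All were in the right direction (90 of 91 with 4-fold and 98 of 109 with 2-fold changes, filtered ones included). The calls also held 23 unchanged genes. The spread set in the simulation is not given here. In the real A-iSCs the SD ran from 4.48% of the mean for S1pr3 to 74.4% for Steap4. The simulated shares therefore do not measure recovery or wrong calls in the real data. Alternatives were scaling by library size or upper quartile, no filter, a pseudocount of 0.1, a model with all 4 groups, a replicate block, limma-voom on the recovered fragments, and leaving out each sample. Library size in the first of these is the total of fragments counted on genes, not the size behind the FPKM. The 9 genes and the lists were chosen with earlier results of these data known. Genes named from a list were those with the largest and smallest called change and direct partners of the 9 genes. H2-D1, Srgn, Il6, Bcl3, Hmmr, Ezr, Msn and Gja1 were named after their values were seen. A gene that the naming rule gives is not reported here. Of the 14 iron genes listed, Tf matched no gene name in the table. Promoters are RefSeq windows on GRCm38.p6.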

Additional observations from a re-analysis of the deposited data

How the results depend on the processing

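Of the log2 fold changes of the 9 genes recomputed under the alternatives, 566 kept their direction and side of the threshold, 5 lost the call and 0 reversed. The 5 were all Hspb1 in A-iSCs over ASTs, lost with scaling by library size, with no filter (-0.89, limma adjusted p = 0.0755) and without each of 3 samples in turn (its adjusted p over the settings other than leaving out a sample was 0.00704 to 0.0755). The genes called lower there went from 2 to 1 with scaling by library size and to 1 with no filter, and ranged from 1 to 2 when each sample was left out. With no filter, Aspg was called higher than in ASTs in P56-NPCs (0.5, limma adjusted p = 0.000925) and P0-NPCs (0.14, limma adjusted p = 0.0486), which made 2 and 1 genes called higher, since fewer genes are left untested. In the same setting Aspg was also called higher in P56-NPCs than in P0-NPCs (0.35, limma adjusted p = 0.00926). Lcn2, Steap4 and Aspg in A-iSCs over ASTs were 4.72, 3.92 and 3.6 with a pseudocount of 0.1, and limma-voom called 3484 genes higher and 4160 lower there.

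Scaling by library size moved the median of all genes to 0.13 in A-iSCs over ASTs, -0.34 and 0.21 in P56-NPCs and P0-NPCs over ASTs, 0.49 in A-iSCs over P56-NPCs and -0.53 in P56-NPCs over P0-NPCs, and upper-quartile scaling moved the first to -0.17. Higher calls as a share of all calls went with library size from 46% to 60.4%, 49.5% to 37.7%, 48.2% to 59.4%, 49.4% to 74.5% and 50.4% to 26.7% in these comparisons. Counts over all genes moved from 4532 higher and 4643 lower to 8329 and 2857 in A-iSCs over P56-NPCs, from 6115 and 6011 to 3438 and 9428 in P56-NPCs over P0-NPCs, and with no filter from 5713 higher to 8597 in P0-NPCs over ASTs. Scaling by library size put the fragments counted on genes in place of the authors' library sizes. The authors' sizes were 0.744 to 0.779 times these totals in P56-NPCs and 0.941 to 0.985 times in ASTs. They were 1.102 to 1.148 times in A-iSCs and 1.147 to 1.218 times in P0-NPCs, so this scaling moved the groups by different factors. Why the authors' sizes differed by group was not tested.

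The fit with the replicate block gave 7 higher and 2 lower genes in A-iSCs over ASTs and changed no call of the 9 genes in any comparison, and over all genes it called 3694 higher and 4250 lower in A-iSCs over ASTs, against 3550 and 4165 without it. The numbers were not taken to pair the samples, since same-numbered ASTs and A-iSCs had correlations of their deviations of -0.38, 0.34 and 0.43, and other pairs of groups -0.14 to 0.1. With 3 samples a group, precision rests on the spread of few samples, and Lcn2 and Steap4 outside A-iSCs rest on 2 to 35 fragments per sample.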
